A study of Mus musculus with 6 samples.

Results

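The immunoglobulin heavy chain V segments (Ighv) are the germline gene pieces on chromosome 12 from which B cells build the variable part of an antibody heavy chain. All rows of the deposited table whose gene name begins with Ighv and a digit were taken, which gave 185 of 34745 genes. They were followed in 6 tumours, 3 of which grew in mice given a high cholesterol diet (HCD) and 3 in mice given a normal diet (ND). Per the labels, B16F10 cells, a mouse melanoma line, were grown in DMEM with fetal serum and injected under the skin of the right flank of C57BL/6J mice, so tumour line, site and host strain were common to both diets. The labels give no age, sex, diet composition or time on diet, and do not say whether each tumour came from its own animal. The spread behind every p-value may therefore be within animals or technical, not between animals. The diets were compared for the level of each segment and for how the counts were divided among segments.

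In a developing B cell, 1 V segment is joined to a D and a J segment, and the joined exon is spliced to a constant region of class M, D, G, E or A. A clone of B cells keeps its V segment while it switches class, and plasma cells carry far more immunoglobulin RNA per cell than resting B cells. Segments with similar sequence are grouped into families, given by the number after Ighv. A count on a V segment in tumour RNA therefore reports immunoglobulin transcripts of B lineage cells in the tissue, without showing which cell or clone they came from.

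The labelled cell type did not match its defining markers in any library. Of 8 pigment cell genes, Tyr, Dct, Mlana and Oca2 had 0 counts in all 6 libraries, and Tyrp1 had 1 count in all. Mitf and Pmel had counts in every library and Sox10 in HCD 2 and HCD 3. The 8 genes summed to 5.80 to 11.1 CPM in HCD tumours and 4.20 to 7.41 CPM in ND tumours, while the summed level of 5 hepatocyte genes (Alb, Afp, Hnf4a, Krt8, Krt18) was 6304 to 8379 CPM in HCD tumours and 6583 to 7800 CPM in ND tumours. CPM (counts scaled to a common library total) was computed with the TMM factors of edgeR. The libraries held 20351637 to 20918324 counts in HCD and 20622727 to 26228074 counts in ND tumours. The 185 segments took 3524 of the 131411022 counts of all libraries, or 0.00268%.

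Of the 185 segments, the GENCODE M21 annotation (GRCm38) lists 113 as V genes, 70 as V pseudogenes and 2 as IG_LV genes. Counts fell on 81 of the 113 V genes, on 1 of the 70 pseudogenes and on neither of the 2 others. The pseudogene was Ighv2-1, with 1 count in HCD 1. The remaining 103 segments had 0 counts in all 6 libraries, which allows a level of up to 0.0228 CPM (3 counts of the total, counting error only). Only 5 segments had a count in every library: Ighv9-3, Ighv1-64, Ighv1-55, Ighv3-6 and Ighv5-17.

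The results turn on Ighv9-3, the most abundant segment, and on Ighv1-63, which had counts in HCD tumours only. Both are shown beside the segment closest to each in sequence, since reads from close copies can be shared out between them. The 4 sequences are the V exons without their first 11 bases, 5′ to 3′, from the GENCODE M21 transcripts, all on the minus strand of GRCm38, and capitals mark bases that differ from the partner. Ighv9-3 lies at chr12:114140692-114140985, Ighv9-2 at chr12:114109001-114109294, Ighv1-63 at chr12:115495625-115495918 and Ighv1-73 at chr12:115790593-115790887.
Ighv9-3: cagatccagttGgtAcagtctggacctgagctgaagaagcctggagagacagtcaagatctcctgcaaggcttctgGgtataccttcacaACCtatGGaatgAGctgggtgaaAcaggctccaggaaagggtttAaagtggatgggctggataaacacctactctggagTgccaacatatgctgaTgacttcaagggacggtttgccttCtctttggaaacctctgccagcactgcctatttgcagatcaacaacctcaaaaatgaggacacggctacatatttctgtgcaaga
Ighv9-2: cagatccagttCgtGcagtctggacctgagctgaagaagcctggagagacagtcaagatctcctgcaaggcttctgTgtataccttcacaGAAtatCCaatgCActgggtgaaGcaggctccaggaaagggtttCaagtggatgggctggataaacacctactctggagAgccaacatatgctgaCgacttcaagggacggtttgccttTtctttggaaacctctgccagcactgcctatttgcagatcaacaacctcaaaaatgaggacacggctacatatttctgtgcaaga
Ighv1-63: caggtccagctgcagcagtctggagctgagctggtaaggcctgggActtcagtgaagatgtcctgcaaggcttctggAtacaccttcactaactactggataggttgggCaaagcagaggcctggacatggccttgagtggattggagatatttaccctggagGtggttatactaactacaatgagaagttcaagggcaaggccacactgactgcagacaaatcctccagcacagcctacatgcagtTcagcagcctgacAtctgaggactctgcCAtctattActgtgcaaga
Ighv1-73: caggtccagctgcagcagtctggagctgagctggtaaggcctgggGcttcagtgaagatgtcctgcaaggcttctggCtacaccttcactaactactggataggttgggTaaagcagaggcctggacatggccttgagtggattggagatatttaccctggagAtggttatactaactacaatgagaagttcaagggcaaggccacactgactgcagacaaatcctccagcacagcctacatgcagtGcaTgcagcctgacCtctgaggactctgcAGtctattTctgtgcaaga
Ighv9-3 and Ighv9-2 differ at 15 of 294 bases. Ighv9-2, a V gene of the same family, had 81 counts against 795 for Ighv9-3. Ighv1-63 and Ighv1-73 are 96.6% identical over this stretch, and Ighv1-73, a pseudogene, had 0 counts in every library. Ighv1-73 is longer, at 295 against 294 bases, and has 10 capitals against 9, because it holds a base with no partner.

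None of the 81 V genes with a count had an identical copy among the 185 segments, and the median identity to the closest segment was 92.2% over the longer transcript of the pair, against 89.7% for the 32 V genes without a count. The share of the 50-base stretches of a transcript found in no other segment was 76.8% for Ighv9-3, 65.9% for Ighv1-63 and 7.5% for Ighv1-72, whose closest relative is Ighv1-62-3. Counts of Ighv1-72, Ighv1-62-2 and Ighv1-71, with 68, 14 and 6 counts in all, are therefore uncertain, because under 10% of their stretches were their own.

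The total Ighv level was high in HCD 1 and HCD 2 and low in HCD 3 and ND 1. It was 55.2, 54.7 and 7.65 CPM in HCD 1, HCD 2 and HCD 3, against 3.13, 25.1 and 17.3 CPM in ND 1, ND 2 and ND 3. The means were 39.2 ± 27.3 CPM in HCD and 15.2 ± 11.1 CPM in ND tumours (SD, n = 3 each), a log2 ratio of 1.37, and the diets overlapped because HCD 3 lay below ND 2 and ND 3. In RNA from whole tissue, fewer cells of a type and less RNA per cell cannot be told apart. No test is given for a sum over the segments.

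Light chain V, heavy chain constant and B cell transcripts put the same libraries at the top and the bottom. The summed list of plasma cell genes did not, although some of its members did. The 162 kappa light chain V segments (Igkv) summed to 66.3, 83.5 and 16.3 CPM in the HCD tumours and 7.99, 46.7 and 27.8 CPM in the ND tumours. The 8 heavy chain constant genes summed to 437, 456 and 66.5 CPM in the HCD tumours, against 57.3, 326 and 137 CPM in the ND tumours. A list of 12 B cell genes, including Ms4a1 and the B cell receptor subunit genes Cd79a and Cd79b, summed to 36.3, 26.8 and 11.6 CPM in the HCD tumours, against 9.65, 16.6 and 16.5 CPM in the ND tumours. HCD 1 and HCD 2 led in each of these 3 lists, and HCD 3 and ND 1 were the lowest pair. All 12 B cell genes had counts, 10 of them were tested and 0 passed. Of 6 genes of the stages at which V segments are joined, Rag2, Vpreb2 and Igll1 had 0 counts in every library. Rag1 had 1 count in each HCD library and 0 in each ND library. Dntt had 4, 3 and 2 counts in the HCD tumours and 3, 8 and 3 counts in the ND tumours. Vpreb1 had 2 counts in ND 1, 6 in ND 3 and 0 elsewhere.

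A list of 10 plasma cell genes summed to 419, 423 and 376 CPM in the HCD tumours, against 491, 408 and 450 CPM in the ND tumours, most of it from Xbp1, Sdc1 and Prdm1. Within this list, only Mzb1, Pou2af1 and Irf4 were highest in HCD 1 and HCD 2 and lowest in HCD 3 and ND 1. Mzb1 was at 2.89, 2.71 and 0.292 CPM in the HCD tumours, against 0.268, 1.78 and 1.41 CPM in the ND tumours. Jchain, the chain that joins IgA and IgM units, was highest in ND 2 and lowest in HCD 3 and ND 1. It was at 28.3, 38.2 and 4.82 CPM in the HCD tumours, against 13.5, 48.9 and 27.3 CPM in the ND tumours. A list of 9 T cell genes was also lowest in HCD 3 and ND 1, at 99.0, 137 and 57.5 CPM in the HCD tumours, against 20.9, 68.2 and 86.6 CPM in the ND tumours. HCD 3 stood apart in 5 keratinocyte genes, at 29.4 CPM, against 5.59 and 6.09 CPM in HCD 1 and HCD 2 and 5.14 to 6.96 CPM in the ND tumours. The part of these cells in the Ighv levels was not tested.

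**Figure D1:**
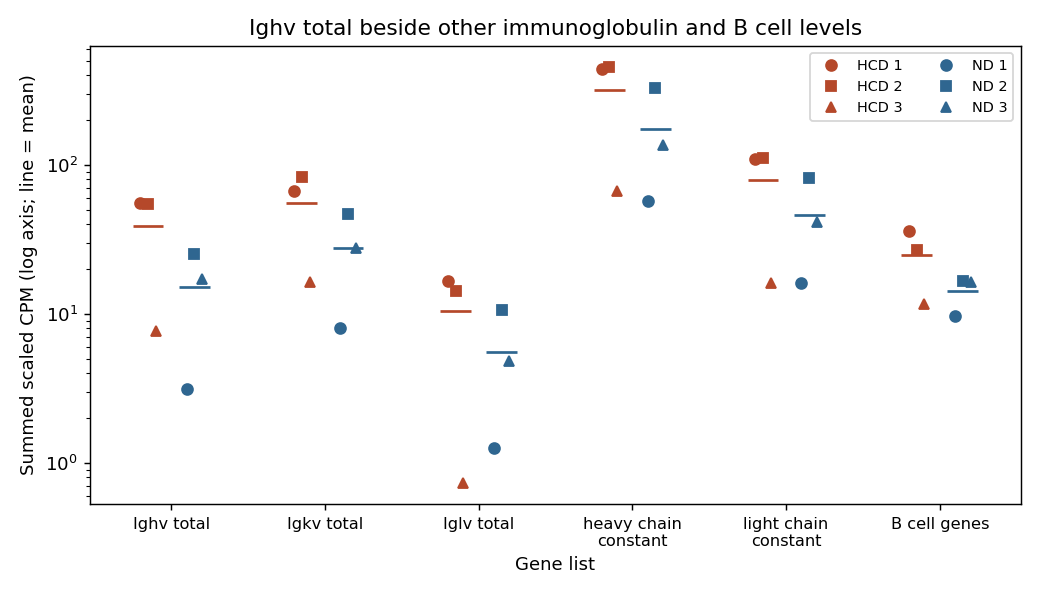
Summed level of each gene list (scaled CPM, log axis) in each library, with HCD left of ND and a line at the mean of a diet. Ighv totals run from 7.65 to 55.2 CPM in HCD and from 3.13 to 25.1 CPM in ND tumours, and the diets overlap in every list.

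The constant region classes differed between the libraries. The 4 IgG genes made up 83.7%, 73.7% and 71.5% of the heavy chain constant counts in HCD 1, HCD 2 and HCD 3, against 14.0%, 45.9% and 14.6% in ND 1, ND 2 and ND 3. Igha, the constant gene of IgA, made up 5.05%, 7.29% and 15.5% in the HCD tumours, against 77.1%, 39.2% and 76.5% in the ND tumours. Neither share overlapped between the diets. Per 100 heavy chain constant counts, the V segments had 12.6, 12 and 11.5 counts in the HCD tumours and 5.46, 7.69 and 12.6 counts in the ND tumours. On the log2 scale the Igha difference was -2.08 ± 0.51 (SE), and it did not pass in edgeR (adjusted p = 0.839).

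Ighv counts were concentrated on fewer segments in HCD than in ND tumours. The most abundant segment of a library held 24.8%, 30.8% and 26.8% of its Ighv counts in HCD 1, HCD 2 and HCD 3, and 7.14%, 16.0% and 9.55% in ND 1, ND 2 and ND 3. The exact binomial 95% intervals of these shares were 22.3% to 27.4%, 28.1% to 33.6% and 20.01% to 34.4% in the HCD tumours, and 2.36% to 15.9%, 13.3% to 19.0% and 6.71% to 13.1% in the ND tumours. They cover counting error only, and reads without molecular identifiers are not independent molecules. In all 3 HCD libraries the leading segment was Ighv9-3, as it was in ND 2. Ighv1-55 led in ND 3, and Ighv7-3 and Ighv1-19 shared the lead in ND 1 with 5 counts each.

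The 5 most abundant segments of a library held 48.9%, 65.7% and 71.3% of its Ighv counts in the HCD tumours, against 31.4%, 40.1% and 28.4% in the ND tumours. The lowest HCD value lay above the highest ND value. The means were 62.0 ± 11.7% in HCD and 33.3 ± 6.10% in ND tumours (SD, n = 3 each). The chance that 2 counts of a library, drawn without replacement, fell on the same segment was 8.61%, 13.7% and 13.5% in the HCD tumours, against 2.44%, 5.21% and 3.08% in the ND tumours. The expected value of this measure does not depend on the number of Ighv counts. The measure was again higher in each HCD library than in any ND library. With 3 libraries a diet, no exact test of these separations can give a p under 0.1, and none was run.

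The number of segments with a count was 60, 54 and 25 in the HCD tumours and 36, 58 and 56 in the ND tumours. It depends on the Ighv total of a library, which was 1145, 1133 and 157 counts in the HCD tumours and 70, 663 and 356 counts in the ND tumours. At an equal draw of 70 counts, the expected number was 26.4, 20.5 and 18.3 segments in the HCD tumours, against 36.0, 29.1 and 34.3 segments in the ND tumours. At equal counts each HCD library thus held fewer segments than each ND library. With Ighv9-3 left out and 66 counts drawn, the expected numbers were 28.4, 22.8 and 19.5 in the HCD tumours, against 35.0, 29.7 and 33.0 in the ND tumours. Without Ighv9-3 the 5 leading segments held 38.4%, 57.0% and 66.1% in the HCD tumours, against 31.8%, 33.9% and 29.2% in the ND tumours, and neither measure overlapped between the diets. The IgG share of constant region counts was likewise higher in each HCD library than in any ND library. Among the HCD tumours, HCD 1 was highest in IgG share and lowest in the share of the 5 leading segments. Among the ND tumours, ND 2 was highest in both. The part of the IgG share in the result was not tested.

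**Figure D2:**
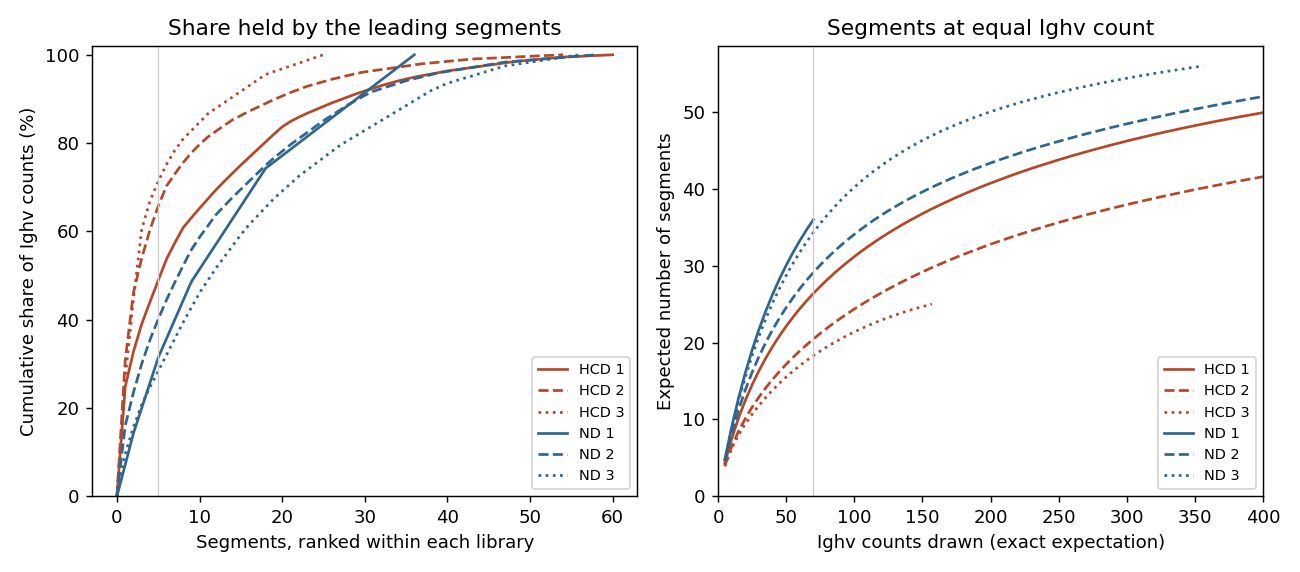
Left, cumulative share of Ighv counts (%) over segments ranked within each library, with a line at 5 segments. Right, exact expected number of segments against Ighv counts drawn, with a line at 70 counts, where HCD libraries lie at 18.3 to 26.4 and ND libraries at 29.1 to 36.0 segments.

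After Ighv9-3, the leading segments were mostly different from tumour to tumour. Ighv1-82 and Ighv1-64 ranked next in HCD 1, with 91 and 72 counts. Ighv6-3 and Ighv1-63 ranked next in HCD 2, with 174 and 88 counts, and Ighv1-5 and Ighv1-63 in HCD 3, with 28 and 25 counts. In ND 2 the next ranks were Ighv9-2 and Ighv1-72, with 50 and 43 counts, and in ND 3 Ighv5-16 and Ighv5-4, with 22 and 18 counts. Of their 5 leading segments, HCD libraries shared 1 to 3 pair by pair, ND libraries 0 to 1, and an HCD with an ND library 0 to 2. Among the 43 segments with at least 20 counts in all, 26 had over 50% of their counts in 1 library.

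Ighv9-3 (ENSMUSG00000096459, GRCm38 chromosome 12, 114140692 to 114141122) took 795 counts, or 22.6% of all Ighv counts. Its level was 13.7, 16.9 and 2.05 CPM in HCD 1, HCD 2 and HCD 3, against 0.179, 4.01 and 0.485 CPM in ND 1, ND 2 and ND 3. HCD 1 and HCD 2 were the highest, and HCD 3 lay below ND 2, so the diets overlapped. On the per-length FPKM scale Ighv9-3 was also the highest segment in the 3 HCD libraries and in ND 2. It was at 39.8, 48.7 and 5.72 FPKM in the HCD tumours and 11.5 FPKM in ND 2. The gene length implied by the deposited FPKM exceeded the transcript length for some segments, among them Ighv1-82 and Ighv1-5, but not for Ighv9-3. Such segments have lower FPKM for the same counts, so this scale does not put all segments on an equal footing. The Ighv9-3 means were 10.9 ± 7.80 CPM in HCD and 1.56 ± 2.13 CPM in ND tumours (SD, n = 3 each). On the log2 scale the difference was 2.77 ± 1.14 (SE), which did not pass in edgeR (adjusted p = 0.839). With 1 library left out the log2 fold change ran from 2.25 (without ND 1) to 5.03 (without ND 2, edgeR adjusted p = 0.559). As a share of Ighv counts, Ighv9-3 did not overlap between the diets, at 24.8%, 30.8% and 26.8% in the HCD tumours and 5.71%, 16.0% and 2.81% in the ND tumours.

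Ighv1-63 (ENSMUSG00000096672, chromosome 12, 115495625 to 115496058) had 11, 88 and 25 counts in HCD 1, HCD 2 and HCD 3 and 0 counts in each ND library. In CPM these were 0.530, 4.25 and 1.22 in the HCD tumours. Taken over a diet's summed counts, it was at least 46.7-fold higher in HCD tumours, with 3 counts over the 3 ND libraries as the floor. This bound covers counting error only, not the spread between tumours, and HCD 2 held 88 of the counts. It did not pass the edgeR quasi-likelihood test (adjusted p = 0.839, unadjusted p = 0.0039), and the DESeq2 Wald test called it (adjusted p = 0.00109). It was the 1 gene that DESeq2 called higher, out of 15530 genes with an adjusted p, or 0.00644%. Over 15 settings its adjusted p ran from 0.00109 to 1.00, and DESeq2 was the only one under the threshold of 0.05.

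Ighv6-3 (chromosome 12, 114391712 to 114392169) was carried by HCD 2, with 8, 174 and 0 counts in the HCD tumours and 2, 31 and 5 counts in the ND tumours. Ighv1-82 (115952538 to 115953005) was high in HCD 1 and HCD 2, with 91, 73 and 0 counts in the HCD tumours against 1, 4 and 9 counts in the ND tumours. Ighv1-64 (115507545 to 115508031) followed the same pair, with 72, 61 and 2 counts in the HCD tumours against 1, 25 and 13 counts in the ND tumours. All 3 segments overlapped between the diets, and HCD 3 was at or near 0 for each.

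Ighv1-5 (114513330 to 114513807) was highest in HCD 3, with 8, 11 and 28 counts in the HCD tumours against 1, 4 and 0 counts in the ND tumours. Each HCD library lay above each ND library, and the segment overlaps Mir7094-2 on the same strand, so part of its counts could belong to that gene. Ighv1-61 (115359140 to 115359572) had 42, 14 and 0 counts in the HCD tumours and 0 in each ND library, so HCD 3 did not differ from the ND libraries. Taken over summed counts with the same floor, Ighv1-61 was at least 21.1-fold higher. Its closest segment, Ighv1-52, had 0, 25 and 0 counts in the HCD tumours and 1, 4 and 4 counts in the ND tumours. They are 97.7% identical, and 39.7% of the 50-base stretches of Ighv1-61 were found in no other segment. Ighv2-9 and Ighv1-37, named after their values were seen, were the other segments with counts in all 3 HCD and in no ND library. Ighv2-9 had 2, 51 and 6 counts and was at least 22.2-fold higher by that measure, and Ighv1-37 had 3, 6 and 2 counts and was at least 4.14-fold higher. These bounds cover counting error only, not the spread between tumours, and HCD 2 held most of the Ighv2-9 counts. Ighv1-37 is 98.6% identical to Ighv1-20, which had 0 counts, and 49.5% of its 50-base stretches were found in no other segment. How reads were shared among such copies was not tested.

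Of the 43 segments with at least 20 counts in all, 16 had their highest count in HCD 1, 10 in HCD 2 and 1 in HCD 3, against 0 in ND 1, 12 in ND 2 and 4 in ND 3. These counts are not scaled to the library total, which was largest in ND 2. Among the named segments, Ighv1-55, Ighv1-72, Ighv9-2, Ighv5-4, Ighv5-16 and Ighv8-8 were higher in an ND library than in any HCD library, in counts and in CPM. Ighv7-3 was so in counts only, at 0.531 CPM in HCD 2 and 0.492 CPM in ND 2. Ighv1-55 (115208095 to 115208591) had 9, 19 and 5 counts in the HCD tumours and 1, 24 and 34 counts in the ND tumours. Ighv1-72 had 7, 3 and 2 counts in the HCD tumours and 0, 43 and 13 counts in the ND tumours, and Ighv9-2 had 24, 2 and 0 counts in the HCD tumours and 1, 50 and 4 counts in the ND tumours. In each case ND 1 lay below at least 1 HCD library, so the diets overlapped. Ighv5-4, with 0, 8 and 1 counts in the HCD tumours and 1, 2 and 18 counts in the ND tumours, was carried by ND 3. Ighv5-16 had 20, 0 and 0 counts in the HCD tumours and 0, 4 and 22 counts in the ND tumours, so 1 library of each diet held most of them.

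The other named segments overlapped between the diets. Ighv1-81 had 21, 31 and 7 counts in the HCD tumours and 0, 29 and 4 counts in the ND tumours, and Ighv1-75 had 56, 4 and 0 counts in the HCD tumours and 4, 10 and 13 counts in the ND tumours. Ighv1-75 was thus carried by HCD 1, while Ighv1-81 was low in HCD 3, ND 1 and ND 3. Ighv1-19, Ighv8-8 and Ighv7-3 had 0 to 22 counts in the HCD tumours, with 0 in HCD 3 for each, and 3 to 13 counts in the ND tumours.

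**Figure D3:**
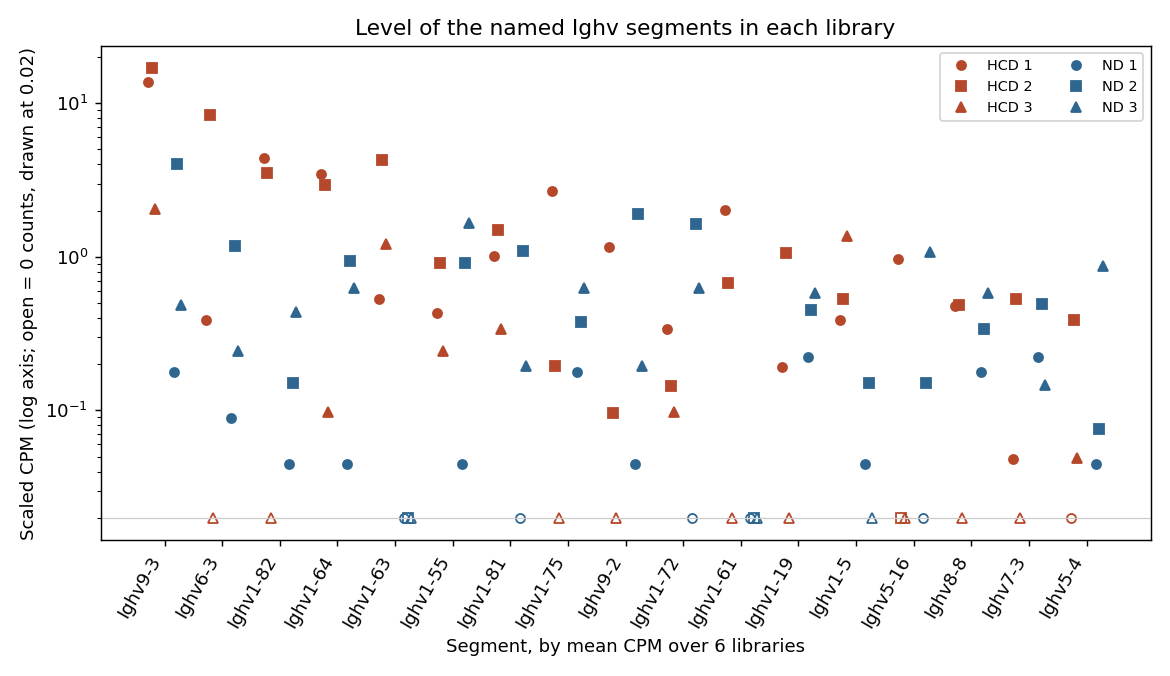
Level of each named segment (scaled CPM, log axis) in the 3 HCD libraries (left of each pair) and the 3 ND libraries, with open symbols for 0 counts drawn at 0.02. Ighv9-3 reaches 16.9 CPM in HCD 2, and Ighv1-63 and Ighv1-61 have open symbols in all 3 ND libraries.

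Across all genes, edgeR called 0 of 15539 higher and 0 lower (0% in each direction), with 282 higher and 541 lower at an unadjusted p under 0.05. DESeq2 called 1 higher and 7 lower (0.0451%), and limma-voom 0. Only 6 of the 185 segments had enough counts for this fit: Ighv9-3, Ighv1-63, Ighv1-64, Ighv1-81, Ighv1-55 and Ighv8-8. At an unadjusted p under 0.05, 2 of the 6 were higher in HCD tumours (Ighv1-63 and Ighv9-3) and 0 lower, where 1.81% of all tested genes were higher and 3.48% lower. The log2 fold change was positive for 4 of the 6, against 53% of all tested genes. Every HCD value exceeded every ND value for 1 of the 6, against 4.74% of all tested genes, and lay below for 0, against 6.36%. Their median log2 fold change was 1.53, against 0.01 over all tested genes. A segment that passed the filter through the diet in which it was high had to differ, as with Ighv1-63, which had 0 counts in each ND library. The numbers of the 6 at an unadjusted p, with a positive change or apart between the diets, and this median, therefore support no direction.

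Without a filter, all 82 segments with a count entered the fit, and the median log2 fold change was 0.11, with 42 positive and 40 negative values. Of all 24803 genes in that fit 52% were positive. At an unadjusted p under 0.05, 9 segments were higher in HCD tumours and 1 lower, against 1.6% and 2.67% of all genes, and 0 passed after adjustment. Every HCD value exceeded every ND value for 5 of the 82 segments, against 4% of all genes, and lay below for 0, against 5.37%. The 5 were Ighv1-63, Ighv1-5, Ighv2-9, Ighv3-8 and Ighv1-37. Ighv3-8, with 57, 1 and 4 counts in the HCD tumours and 0, 1 and 0 counts in the ND tumours, rested on HCD 1.

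By diet, 62 segments had counts in both, 9 in HCD tumours only and 11 in ND tumours only. The 9 HCD segments held 265 counts, led by Ighv1-63 with 124, and 3 of the 9 were seen in 1 library. The 11 ND segments held 43 counts, led by Ighv1-85 with 16, and 9 of the 11 were seen in 1 library. The same split was not counted over all genes, so these numbers support no direction.

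By family, Ighv1, the family with 93 of the 185 segments, held 47.2% of all Ighv counts. Its share was 49.0%, 41.6% and 59.2% in the HCD tumours and 45.7%, 45.3% and 58.1% in the ND tumours, so the diets overlapped. Ighv9, with 4 segments, held 25.6% of the counts. Its share was 27.0%, 31.8% and 26.8% in the HCD tumours and 8.57%, 25.3% and 5.06% in the ND tumours. Ighv9-3 made up 91.9%, 96.9% and 100% of the Ighv9 counts in the HCD tumours, against 66.7%, 63.1% and 55.6% in the ND tumours. The Ighv5 family had a share of 3.84%, 2.03% and 3.18% in the HCD tumours and 7.14%, 5.73% and 17.4% in the ND tumours. Ighv8 held 1.31%, 0.971% and 1.27% in the HCD tumours, against 8.57%, 2.41% and 3.93% in the ND tumours. Among 15 families with a count, the share of Ighv9 lay higher in each HCD library than in any ND library. The shares of Ighv4, Ighv5 and Ighv8 lay lower. Ighv4 rested on 21 counts, with 4, 0 and 0 in the HCD tumours and 3, 8 and 6 in the ND tumours. With 3 libraries a diet, no exact test of such a separation can give a p under 0.1. In CPM none of the 16 families separated the diets. Shares of a library sum to a fixed total, so they are not independent of each other.

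**Figure D4:**
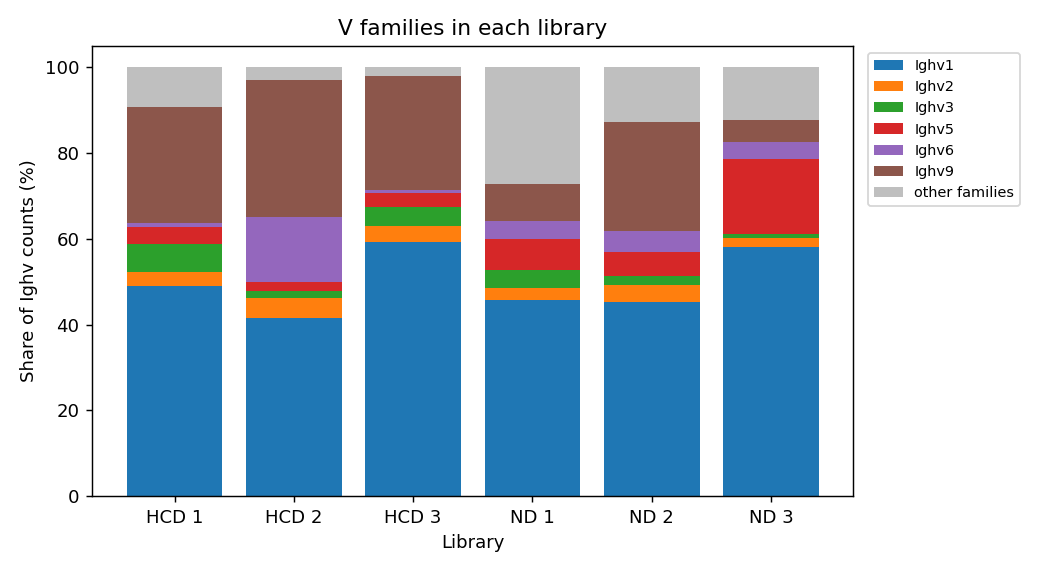
Share of the Ighv counts of each library (%) held by the 6 families with the most counts and by the 10 others together, HCD left of ND. The 10 other families hold 1.91% to 9.34% in HCD and 12.4% to 27.1% in ND libraries, and Ighv9 holds 26.8% to 31.8% in HCD libraries.

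With the segments ordered along the locus from the D segments outward, the first 62 held 40.5% of the Ighv counts, the next 62 held 19.4% and the last 61, which lie between 114945950 and 116010093, held 40.1%. Ighv9-3 alone gave 795 of the 1426 counts of the first 62 segments. Without it, an alternative chosen after the values were seen, the 3 groups held 23.1%, 25.1% and 51.8% in the same order. The first 62 segments took 41.0%, 41.6% and 36.3% of the counts in the HCD tumours, against 35.7%, 44.9% and 29.5% in the ND tumours, and the last 61 took 45.8%, 36.3% and 31.2% in the HCD tumours, against 40.0%, 37.3% and 43.3% in the ND tumours. These shares overlapped between the diets. Ighv9-3 stands at place 51 of this order, Ighv6-3 at place 69, Ighv1-63 at 155 and Ighv1-82 at 181.

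**Figure D5:**
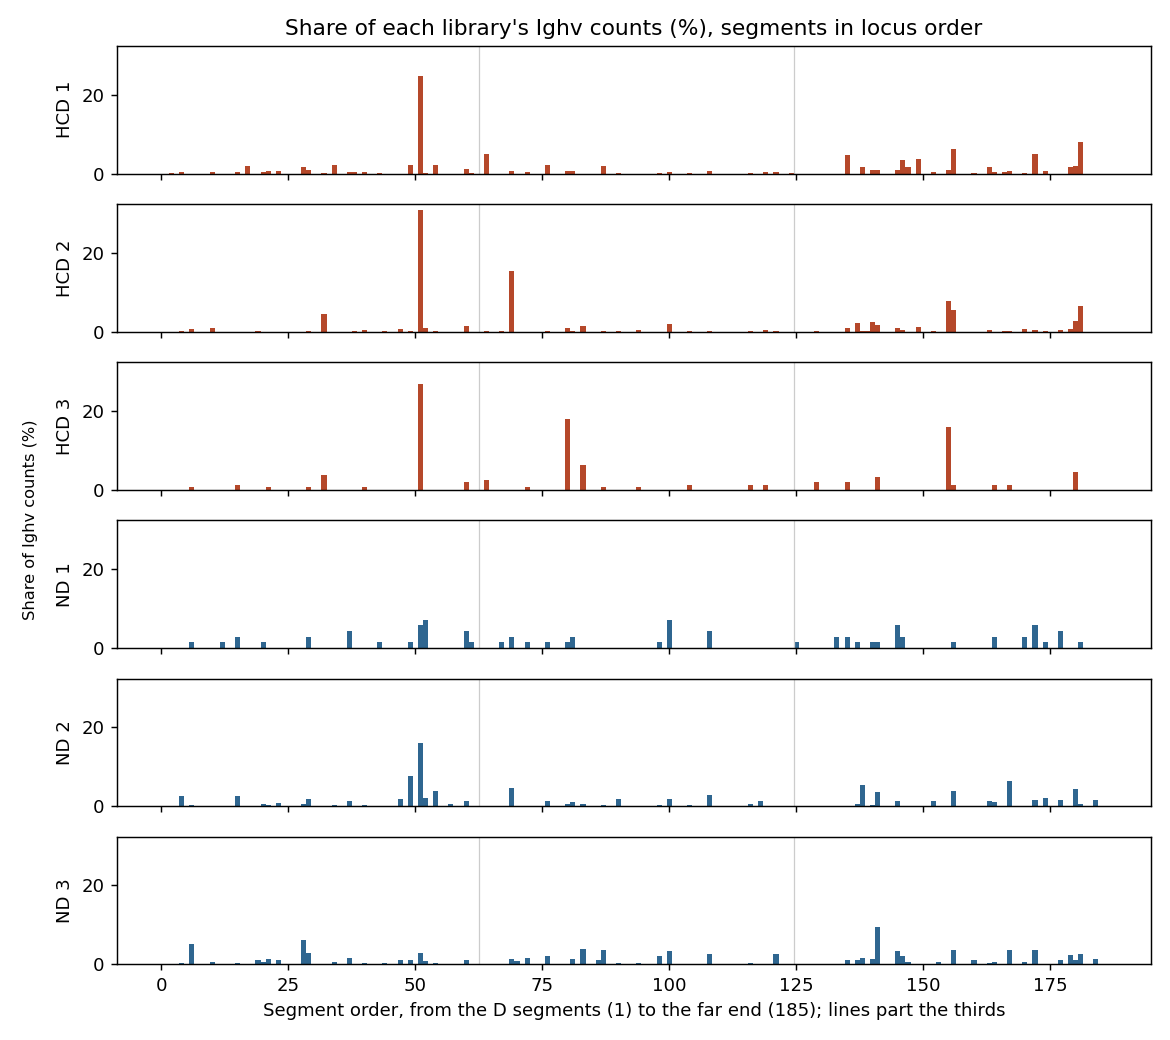
Share of each library's Ighv counts (%) on each of the 185 segments, in order from the D segments, with HCD libraries above ND libraries and lines between the groups of 62, 62 and 61 segments. The tallest bar in each HCD library is Ighv9-3 at place 51, at 24.8% to 30.8%, and no segment exceeds 9.55% in ND 1 and ND 3.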

How the data were processed

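RNA of 6 tumours was sequenced, 3 HCD and 3 ND, grouped by the labels. The authors deposited raw read counts and FPKM values (counts scaled by gene length and library total) per gene. The submitters' processing notes name TopHat2 2.0.9, CASAVA 1.8, edgeR, HTSeq and the mm10 build without saying what each did. The annotation release, strand setting and treatment of reads with several matches are not given in the sources used here, so counts of close copies are uncertain, as are reads that carry somatic mutations. All 185 segment IDs matched GENCODE M21, and 8 overlap another gene.

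Counts were tested over all genes in edgeR 4.0.16 (quasi-likelihood, legacy form, TMM, diet as the only term, minimum count 10, minimum total 15) in R 4.3.3, with Benjamini-Hochberg adjustment over all tested genes and a threshold of 0.05. CPM uses deposited library totals scaled by TMM factors of 0.979 to 1.02. Alternatives were DESeq2 1.42.0, limma 3.58.1 (voom, and log2(FPKM + 1)), other scalings and filters, the replicate block and each library left out. The edgeR fit was tested on simulated counts with known fold changes, and the equal-draw and same-segment estimates on small made-up counts with known answers. No libraries had identical counts, and pairs of 1 diet differed by at least 17.0 times the chi-square expected from sampling noise.

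Named segments are the 8 with the highest mean CPM, the 3 leading in each library, the 5 smallest p in each direction, those called by any tool, and those with 0 counts in 1 diet and at least 10 in each of 2 or more libraries of the other. Ties within a library were taken in locus order. Members and lists were chosen with earlier results of these data known. No promoter of a segment was matched.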

Additional observations from a re-analysis of the deposited data

How the results depend on the processing

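Of the segments tested in each setting, 0 passed in edgeR under every scaling, filter and threshold tried, with limma and with each library left out. The segments tested differed between settings, and with the filter of 1 CPM only Ighv9-3 was tested. In the DESeq2 Wald test 1 of 6 passed (Ighv1-63, log2 fold change 7.97). Over all genes the count was 8 with DESeq2 and ran from 0 to 2 with 1 library left out (2 without ND 2). The samples share only a replicate number: deviations of same-numbered libraries correlated at -0.31, 0.14 and 0.08, and HCD 1 and HCD 3 correlated best with ND 2 and ND 1, at 0.48 and 0.54. With the replicate block 0 genes and 0 segments passed, and the median log2 fold change of the tested segments was 1.59. That median was taken over another number of segments in several settings: 6 as reported, 82 without a filter (0.11), 1 with the filter of 1 CPM (2.76) and 11 on FPKM (0.63). With 1 library left out it ran from 0.38 (22 segments, without ND 1) to 2.16 (16 segments, without ND 2), so these medians compare different segments. The log2 ratio of the Ighv total was 1.37 and ran from 0.89 to 1.94 with 1 library left out. It was 1.06 without Ighv9-3, an alternative added after the data were seen, as was leaving Ighv9-3 out of the shares, segment numbers and locus groups.

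The difference in the share of the 5 leading segments, 28.7 percentage points, ran from 24.0 to 35.2 with 1 library left out and was 16.6 for the leading segment alone, which by construction holds less. The difference in segments with a count, -3.67, ran from -10.7 to 7 (without HCD 3), was 0.333 without ND 2, and was 2.67 and 4.33 with a minimum of 3 and 10 counts, while at equal counts it was -11.4. The log2 fold change of Ighv1-55 was 0.048 with limma-voom and ran from -1.33 to 0.13 with 1 library left out, and that of Ighv8-8 from -0.58 to 0.40; the cause was not tested. Between 70 and 1145 Ighv counts a library limit every share, and ND 1 carries the fewest.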
